A study of Mus musculus with 8 samples.

Results

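Red cell and platelet RNA in mouse lung was followed through 10 genes, 5 of the erythroid lineage (*Hba-a1*, *Hba-a2*, *Hbb-bs*, *Hbb-bt* and *Alas2*) and 5 of platelets and their precursors (*Pf4*, *Ppbp*, *Gp9*, *Gp1ba* and *Itga2b*). They are 10 of the 55416 genes in the count files, and all 10 were among the 18560 genes that passed the filter on low counts. The genes were chosen by their measured levels across these same libraries, so their levels and differences are given as a description and without a test.

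The study asked how endotoxin shock changes the lung and how YW3-56, an inhibitor of protein arginine deiminases, alters that change. Female C57BL/6 mice (C57BL/6J in the methods) aged 6 to 8 weeks gave 1 lung library each, 8 in all. The 3 control mice (numbers 1, 2 and 4) received DMSO into the tail vein and then saline into the peritoneum. The 3 LPS mice (numbers 1, 6 and 7) received 35 mg/kg of lipopolysaccharide (LPS), and the 2 dual-treated mice (numbers 2 and 5) received 10 mg/kg of YW3-56 in DMSO shortly before the same dose of LPS. Lungs were taken 24 h after LPS. An injection of DMSO is described for the control and dual-treated mice but not for the mice given LPS alone, so the inhibitor and its solvent cannot be told apart in the comparison of those groups. The methods speak of 3 sequenced mice per group, whereas the labels and a figure legend of the paper give 2 for the dual treatment. Whether blood was flushed from the lungs is not given in the sources used here.

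Mature mammalian red cells have lost their nucleus, and the RNA of their youngest form, the reticulocyte, is mostly mRNA of the alpha and beta chains of hemoglobin. Platelets also lack a nucleus and carry RNA made by megakaryocytes, which sit in bone marrow and in the vessels of the lung. Platelet granules hold the chemokines Pf4 and Ppbp, and the platelet surface holds the von Willebrand factor receptor (Gp1ba, Gp1bb, Gp5 and Gp9) and the fibrinogen receptor (Itga2b and Itgb3).

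Total counts per library ran from 19061949 in control mouse 1 to 20908608 in dual-treated mouse 5. Levels are CPM, counts scaled to a common library total, after TMM normalization, with factors from 1.06 to 1.08 in control, from 0.810 to 0.930 in LPS and from 1.09 to 1.11 in dual-treated libraries. LPS mice 6 and 7 stood apart: *Krt13*, a keratin of squamous epithelium, was at 286 and 887 CPM in them and at most at 0.878 CPM elsewhere. *Acta1*, the actin of skeletal muscle, was at 209.6 and 600.2 CPM in the same libraries and at most at 0.690 CPM elsewhere. Both genes were picked after their values had been seen, and so was the alternative that leaves both libraries out.

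Globin RNA was lower in both dual-treated lungs than in every other lung. Together the 4 globin genes took 0.182% (0.180% to 0.184%) of the counts in control mouse 1, 0.412% (0.409% to 0.414%) in mouse 2 and 0.289% (0.287% to 0.291%) in mouse 4, with Wilson 95% confidence intervals in parentheses. In LPS mice 1, 6 and 7 they took 0.259% (0.257% to 0.262%), 0.164% (0.163% to 0.166%) and 0.133% (0.131% to 0.135%). The share was 0.0460% (0.0450% to 0.0469%) in dual-treated mouse 2 and 0.0405% (0.0396% to 0.0413%) in mouse 5. Control and LPS libraries overlapped, and both dual-treated libraries lay below them. The intervals cover counting error only and were far narrower than the spread between the mice of the control and LPS groups. In whole lung, fewer cells of a type and less RNA per cell cannot be told apart.

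**Figure D1:**
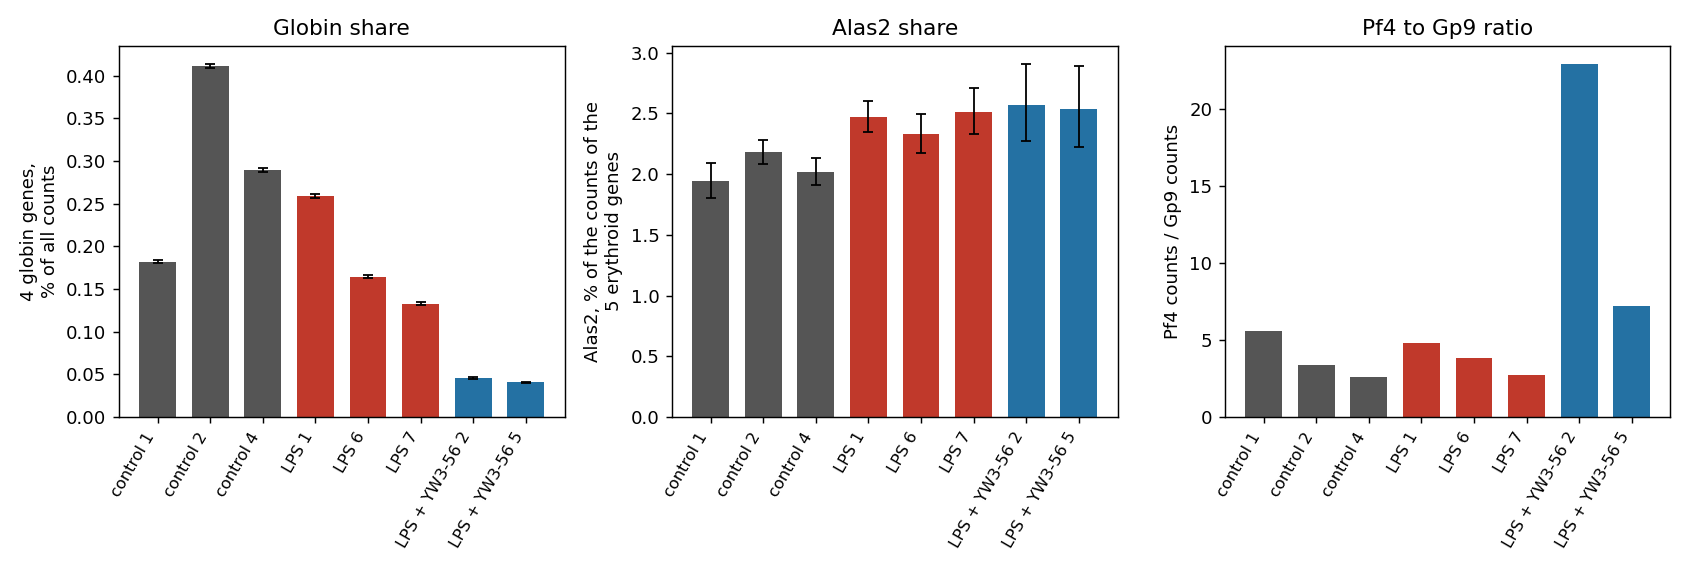
Per library, the counts of the 4 globin genes as a percentage of all counts (left) and *Alas2* as a percentage of the counts of the 5 erythroid genes (middle), with Wilson 95% confidence intervals as bars, and the ratio of *Pf4* to *Gp9* counts (right), by group and mouse number. The globin share was 0.0460% and 0.0405% in the dual-treated libraries and at least 0.133% in the others, and the ratio of *Pf4* to *Gp9* was 23.0 and 7.18 in the dual-treated libraries and at most 5.59 in the others.

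*Hba-a1*, a gene of the adult alpha chain, was at 613, 1233 and 908 CPM in control mice 1, 2 and 4, at 1071, 782 and 515 CPM in LPS mice 1, 6 and 7, and at 156 and 146 CPM in dual-treated mice 2 and 5. Control mouse 2 and LPS mouse 1 were the highest of their groups, control and LPS overlapped, and both dual-treated mice lay below all others. The group means were 918 ± 310.1 CPM in control (SD, n = 3), 789.5 ± 278 CPM in LPS (SD, n = 3) and 151 ± 6.93 CPM in dual-treated lungs (SD, n = 2). The fitted log2 fold change (log2FC) of dual-treated against LPS lungs was -2.39 ± 0.35 (SE) and against control -2.61 ± 0.36. For LPS against control it was -0.22 ± 0.29.

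The second alpha gene, *Hba-a2*, was at 125, 317 and 203 CPM in control mice 1, 2 and 4, at 277, 92 and 141 CPM in LPS mice 1, 6 and 7, and at 34.0 and 23.8 CPM in dual-treated mice 2 and 5. Control and LPS mice were again intermingled, and the dual-treated mice were below both. Its log2FC was -2.56 ± 0.51 (SE) for dual-treated against LPS lungs, -2.89 ± 0.52 for dual-treated lungs against control and -0.34 ± 0.41 for LPS against control.

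*Hbb-bs*, a gene of the adult beta chain, was at 856, 2024 and 1454 CPM in control mice 1, 2 and 4, at 1571, 829 and 698 CPM in LPS mice 1, 6 and 7, and at 206 and 184 CPM in dual-treated mice 2 and 5. LPS mouse 1 lay within the control range and LPS mice 6 and 7 below it, while the dual-treated mice were lower than all others. Its log2FC was -2.41 ± 0.43 (SE) for dual-treated against LPS lungs and -2.89 ± 0.44 against control. For LPS against control the log2FC was -0.48 ± 0.35, with overlapping groups. *Hbb-bt*, the second beta gene, was at 106, 249 and 164 CPM in control, at 283, 137 and 76.5 CPM in LPS and at 19.5 and 18 CPM in dual-treated mice, in the same order. LPS mouse 1 was its highest library and the dual-treated mice its lowest. The log2FC of *Hbb-bt* was -3.14 ± 0.55 (SE) for dual-treated against LPS lungs, the largest difference of the 10 genes in that comparison, as their means differed by a factor of 8.83. Over the settings tried this log2FC ran from -3.92 to -2.52.

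Levels of different genes can be compared only per kilobase of transcript. On that scale the control means were 2176 ± 879.9 CPM per kb for *Hbb-bs* and 1243 ± 420.2 for *Hba-a1* (SD, n = 3), with overlapping mice. *Hba-a2* at 332 ± 149 and *Hbb-bt* at 246 ± 102 CPM per kb were lower and overlapped with each other (SD, n = 3), and *Alas2* was at 28.7 ± 12.7 CPM per kb. In dual-treated lungs the globins kept this order, at 293, 204, 44.7 and 26.6 CPM per kb. The ratio of alpha to beta globin levels was 0.766, 0.681 and 0.686 in control mice 1, 2 and 4, 0.727, 0.904 and 0.848 in LPS mice 1, 6 and 7, and 0.842 and 0.840 in dual-treated mice 2 and 5. LPS mice overlapped with both other groups, the dual-treated mice lay above the control mice, and the ratio varied far less than the level of either chain.

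How counts are divided within each pair of globin genes is uncertain, because the copies are nearly identical and the handling of reads that fit several places is not given in the sources used here. *Hba-a1* lies at chr11:32233186-32234504 and *Hba-a2* at chr11:32246168-32247320 on the plus strand (GRCm39). *Hbb-bt* lies at chr7:103461727-103465047 and *Hbb-bs* at chr7:103475730-103482989 on the minus strand. The 426 coding bases of the alpha genes differ at 1 base, C381T from *Hba-a1* to *Hba-a2*, counted from the first base of the start codon. The 441 coding bases of the beta genes also differ at 1 base, C417T from *Hbb-bs* to *Hbb-bt*. Shown are 45 coding bases around each with the differing base in capitals, since it is all that separates the copies within the coding sequence.
Hba-a1: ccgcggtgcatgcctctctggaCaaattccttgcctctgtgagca
Hba-a2: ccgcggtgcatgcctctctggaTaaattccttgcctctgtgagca
Hbb-bs: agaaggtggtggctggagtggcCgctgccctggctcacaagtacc
Hbb-bt: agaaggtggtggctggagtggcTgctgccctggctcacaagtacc
Of all stretches of 150 bases in the *Hba-a1* transcript, 61% also occur in *Hba-a2*, and 54.6% of those in *Hbb-bs* also occur in *Hbb-bt*. The ratio of *Hba-a1* to *Hba-a2* was 4.91, 3.89 and 4.48 in control mice 1, 2 and 4, 3.87, 8.50 and 3.65 in LPS mice 1, 6 and 7, and 4.58 and 6.11 in dual-treated mice 2 and 5. LPS mouse 6 had the highest ratio, and the groups overlapped. The ratio of *Hbb-bs* to *Hbb-bt* was 8.05, 8.13 and 8.86 in control mice 1, 2 and 4. It was 5.545, 6.04 and 9.12 in LPS mice 1, 6 and 7, and 10.5 and 10.2 in dual-treated mice 2 and 5. For this pair the dual-treated mice lay above all others, and control and LPS overlapped. The part of this split in the difference of *Hbb-bt* was not tested. The span of *Hbb-bs* also overlaps *Hbb-bh3* and *Gm15115* in the annotation.

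*Alas2* (chrX:149330371-149353634, plus strand), the erythroid enzyme that starts heme synthesis, had the same order of groups. It was at 33.7, 85.2 and 56.3 CPM in control mice 1, 2 and 4, at 81.1, 43.9 and 36.8 CPM in LPS mice 1, 6 and 7, and at 10.9 and 9.66 CPM in dual-treated mice 2 and 5. Its span overlaps *Apex2* and *Mir3620* in the annotation. Control and LPS mice overlapped, and the dual-treated mice were lower than both. The log2FC was -2.39 ± 0.44 (SE) for dual-treated against LPS lungs, -2.50 ± 0.44 against control and -0.12 ± 0.35 for LPS against control. Measured against the globins, *Alas2* varied little. It made up 1.95% (1.81% to 2.09%) of the counts of the 5 erythroid genes in control mouse 1, 2.18% (2.08% to 2.28%) in mouse 2 and 2.02% (1.91% to 2.14%) in mouse 4 (Wilson 95% confidence intervals). The share was 2.47% (2.34% to 2.6%), 2.33% (2.17% to 2.50%) and 2.51% (2.33% to 2.71%) in LPS mice 1, 6 and 7, and 2.57% (2.27% to 2.91%) and 2.54% (2.22% to 2.89%) in dual-treated mice 2 and 5. All treated libraries lay above the control libraries, and the shares of the 8 libraries lay within a narrow band.

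Within groups the same mouse led for each of the 5 erythroid genes. Control mouse 2 was the highest of its group for 5 of 5 genes, LPS mouse 1 for 5 of 5 and dual-treated mouse 2 for 5 of 5. The highest mouse exceeded the lowest by 2.01- to 2.54-fold in control and by 2.08- to 3.70-fold in LPS, but by 1.07- to 1.43-fold between the 2 dual-treated mice.

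**Figure D2:**
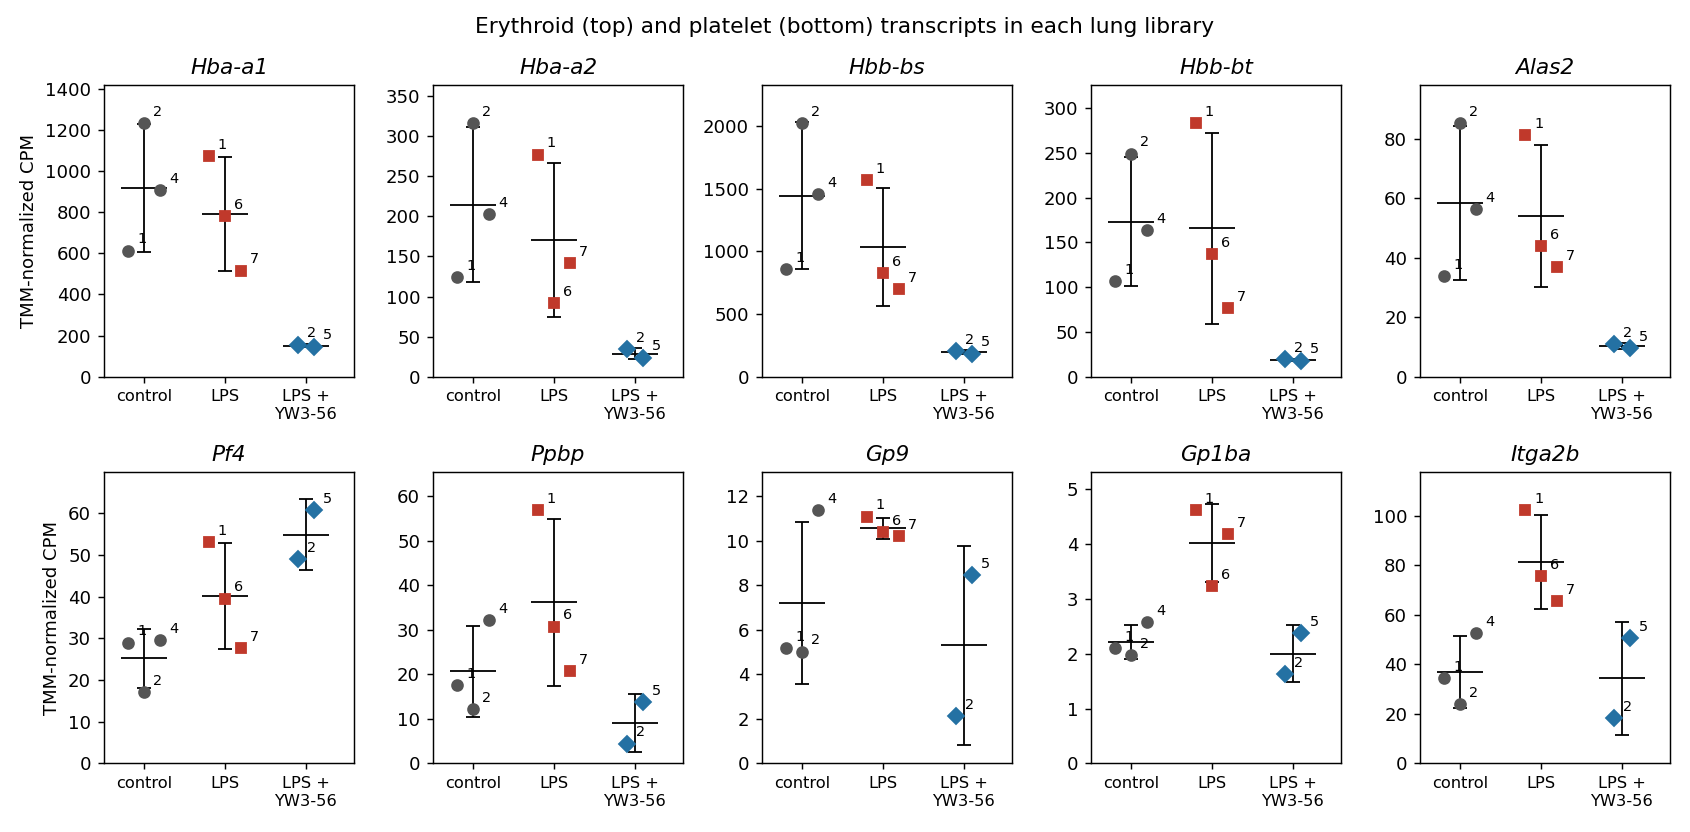
TMM-normalized CPM of the 10 genes in each library, with the mouse number beside each point, and the group mean with SD (n = 3, 3 and 2). The erythroid genes were lower in both dual-treated mice than in any other mouse, as for *Alas2* at 10.9 and 9.66 CPM, whereas *Pf4* was at 49.0 and 60.9 CPM in them and at most at 29.6 CPM in control mice.

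The platelet genes had other orders of groups. *Itga2b* (chr11:102341397-102360955, minus strand), the alpha subunit of the fibrinogen receptor, was at 34.3, 24 and 52.7 CPM in control mice 1, 2 and 4, at 102, 75.7 and 65.5 CPM in LPS mice 1, 6 and 7, and at 18.2 and 50.6 CPM in dual-treated mice 2 and 5. All LPS mice lay above the mice of both other groups, and the dual-treated mice overlapped with control. Its log2FC was 1.13 ± 0.38 (SE) for LPS against control and -1.24 ± 0.43 for dual-treated against LPS lungs. Against control the dual-treated value was -0.11 ± 0.42, and -1.06 without dual-treated mouse 5 or 0.42 without mouse 2. The value for dual-treated against LPS lungs ran from -2.18 to -0.70 over the settings tried.

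*Gp1ba* (chr11:70529948-70532862, plus strand) encodes the chain of the von Willebrand factor receptor that binds the ligand. It was at 2.10, 1.97 and 2.58 CPM in control mice 1, 2 and 4, at 4.63, 3.23 and 4.19 CPM in LPS mice 1, 6 and 7, and at 1.63 and 2.37 CPM in dual-treated mice 2 and 5, on 36 to 78 counts per library. The LPS mice were above all others, and control and dual-treated mice overlapped. Its log2FC was 0.85 ± 0.26 (SE) for LPS against control and -1.0 ± 0.30 for dual-treated against LPS lungs. *Gp1ba* overlaps *Slc25a11* and *Itga2b* overlaps *Gm56028* in the annotation, and the strand setting of the counting is not given in the sources used here.

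*Gp9* (chr6:87755047-87756750, plus strand), a small subunit of the same receptor, was at 5.19, 5.02 and 11.4 CPM in control mice 1, 2 and 4, at 11.1, 10.4 and 10.2 CPM in LPS mice 1, 6 and 7, and at 2.13 and 8.47 CPM in dual-treated mice 2 and 5. Control mouse 4 was above the LPS mice, and the dual-treated mice, both below LPS, differed 3.97-fold from each other. The log2FC of dual-treated against LPS lungs was -0.99 ± 0.53 (SE), and it was -2.33 without mouse 5 and -0.34 without mouse 2.

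*Ppbp* (chr5:90916371-90917930, plus strand), the precursor of platelet basic protein, was at 17.6, 12.3 and 32.1 CPM in control mice 1, 2 and 4, at 57.0, 30.7 and 20.7 CPM in LPS mice 1, 6 and 7, and at 4.45 and 13.7 CPM in dual-treated mice 2 and 5. Control overlapped with both other groups, and the dual-treated mice were below all LPS mice. Its log2FC was 0.81 ± 0.49 (SE) for LPS against control and -1.99 ± 0.59 for dual-treated against LPS lungs. The latter was -3.03 without dual-treated mouse 5 and -1.41 without mouse 2. The log2FC of *Ppbp* for LPS against control ran from 0.32 to 1.47 over the settings tried.

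*Pf4* (chr5:90918479-90922110, plus strand), which encodes platelet factor 4 and lies next to *Ppbp*, had another pattern. It was at 29.0, 17.0 and 29.6 CPM in control mice 1, 2 and 4, at 53.0, 39.6 and 27.7 CPM in LPS mice 1, 6 and 7, and at 49.0 and 60.9 CPM in dual-treated mice 2 and 5. *Pf4* was the only one of the 10 genes for which both dual-treated mice lay above all control mice, and they overlapped with the LPS mice. Its log2FC was 1.12 ± 0.28 (SE) for dual-treated lungs against control, 0.67 ± 0.26 for LPS against control and 0.45 ± 0.28 for dual-treated against LPS lungs. Over the settings tried the last of these ran from 0.04 to 0.80, and that for LPS against control from 0.37 to 1.08.

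The ratio of *Pf4* to *Gp9* counts was 5.59, 3.39 and 2.6 in control mice 1, 2 and 4, 4.78, 3.81 and 2.71 in LPS mice 1, 6 and 7, and 23.0 and 7.18 in dual-treated mice 2 and 5. *Pf4* over *Ppbp* gave ratios of 1.64, 1.39 and 0.923 in control, 0.931, 1.29 and 1.34 in LPS and 11 and 4.43 in dual-treated mice, in the same order. Both ratios overlapped between control and LPS and were higher in both dual-treated mice. *Itga2b* over *Gp9* gave 6.61, 4.78 and 4.62 in control, 9.23, 7.28 and 6.42 in LPS and 8.51 and 5.97 in dual-treated mice, in the same order, with the dual-treated mice inside the range of the others.

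Macrophages are another known source of *Pf4*, and 14 of their marker genes were read beside it. A gene is called when edgeR's quasi-likelihood test gives it a Benjamini-Hochberg adjusted p under 0.05 with a fold change over 2. Shares of all genes called are by this rule throughout, also where counts by other rules stand beside them. In dual-treated lungs 8 of the 14 macrophage genes were called higher than in control and 0 lower (9 and 0 at an unadjusted p, 7 and 0 by DESeq2), beside 5.25% higher and 1.9% lower of all genes, and without dual-treated mouse 5 there were 7 higher and 1 lower. Against LPS lungs 10 were called higher and 1 lower, beside 19.8% higher and 14% lower of all genes, and without dual-treated mouse 5 or without LPS mice 6 and 7 there were 8 higher. In LPS against control lungs 1 was called higher and 3 lower, beside 17.9% higher and 21.3% lower of all genes. Without control mouse 4 there was 1 lower, without control mouse 1 there were 3 higher and 2 lower, and without control mouse 2, LPS mouse 6, LPS mouse 7 or both of these LPS mice there were 2 lower. The 14 genes summed to 3902, 4450 and 4584 CPM in control mice 1, 2 and 4, 5675, 4891 and 5115 CPM in LPS mice 1, 6 and 7, and 4828 and 5305 CPM in dual-treated mice 2 and 5. The most abundant was *Cbr2* (2803 to 4059 CPM), which lung epithelium also expresses, and none of the list was at 0. *Lyve1*, picked after its values were seen, was at 334, 273 and 209.5 CPM in control mice 1, 2 and 4. It was at 2056, 1787 and 1504 CPM in LPS mice 1, 6 and 7, and at 513 and 248 CPM in dual-treated mice 2 and 5. *Cbr2* and *Lyve1* made up most of each sum, so the sums say little of the other genes. *C1qa*, a subunit of complement C1q picked after its values were seen, was at 29.3, 20.3 and 27.1 CPM in control mice 1, 2 and 4, at 19.6, 18.7 and 17.4 CPM in LPS mice 1, 6 and 7, and at 122 and 109 CPM in dual-treated mice 2 and 5. It was highest in the dual-treated mice without overlap. The part of these cells in the result for *Pf4* was not tested.

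The order of mice within groups differed between the platelet and the erythroid genes. Control mouse 4 was the highest control for 5 of 5 platelet genes, and dual-treated mouse 5 was above mouse 2 for 5 of 5, whereas mouse 2 led both groups for the erythroid genes. LPS mouse 1 was the highest LPS mouse for both sets. On the scale per kilobase of transcript, the control means were 18.2 ± 9.03 CPM per kb for *Ppbp*, 16.9 ± 4.74 for *Pf4*, 8.11 ± 4.10 for *Gp9* and 6 ± 2.36 for *Itga2b* (SD, n = 3). *Gp1ba*, at 0.822 ± 0.118 CPM per kb (SD, n = 3), was the lowest of the 10.

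Counted by overlap, 2 of the 5 platelet genes and 0 of the 5 erythroid genes were higher in every LPS mouse than in every control mouse, beside 34.7% of all 18560 genes that were higher and 37.3% that were lower. In dual-treated against control lungs 5 erythroid genes were lower in every mouse and 1 platelet gene was higher, beside 26.2% and 26.1% of all genes. In dual-treated against LPS lungs 5 erythroid and 4 platelet genes were lower in every mouse, beside 32.9% lower and 37.9% higher of all genes. The choice of the 10 genes used these levels, so nothing is read from the shares.

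For LPS against control the sign of the erythroid differences depended on the setting, with the log2FC of *Hba-a1* from -0.53 to 0.23 and that of *Alas2* from -0.53 to 0.48. Without LPS mice 6 and 7, an alternative chosen after the data were seen, *Alas2* was at 0.48 and *Hbb-bt* at 0.72. For dual-treated lungs the 5 erythroid genes were lower in each setting tried, with *Alas2* from -2.98 to -1.98 against LPS and from -2.78 to -2.13 against control. Scaling by library size alone moved the median log2FC of all genes from -0.01 to -0.29 for LPS against control and from 0.06 to 0.38 for dual-treated against LPS lungs. *Gp1ba* then stood at 0.57 and -0.67 in these comparisons.

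The wider erythroid program was read from 27 other genes of red cells and their precursors. Of these 26 were matched, 21 were tested and 1, *Icam4*, had no count in any library. The matched genes summed to 527, 588 and 545 CPM in control mice 1, 2 and 4. The sums were 432, 375 and 403 CPM in LPS mice 1, 6 and 7, and 368 and 421 CPM in dual-treated mice 2 and 5. LPS and dual-treated mice overlapped, and both lay below control. *Epb41* had the highest mean, at 93.6 to 185 CPM, so the sums say little of the scarce genes. Relative to LPS lungs, 12 of the 21 fell and 2 rose with the dual treatment, while among all genes 14% were called lower and 19.8% higher. Their median log2FC was -1.38, also with *Hemgn* at its bound, against 0.06 for all genes. Of the genes that fell, 4 would not have passed the filter on low counts without the LPS libraries, in which they were high, so the filter favored these calls. The other 8 stood beside 10.9% of all genes counted in the same way. Over the 15 genes that pass the filter without any 1 of the groups the median was -1.22. Under scaling by library size alone 8 fell and 3 rose, 7 fell and 1 rose without dual-treated mouse 5, and 7 fell and 2 rose without mouse 2.

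Among the genes that fell were *Slc4a1*, *Sptb*, *Ermap* and *Tmod1*. *Slc4a1*, the anion exchanger band 3, was at 3.23, 9.20 and 3.17 CPM in control mice 1, 2 and 4, at 20, 9.82 and 13.2 CPM in LPS mice 1, 6 and 7, and at 2.27 and 0.878 CPM in dual-treated mice 2 and 5. All LPS mice were above all others, and both dual-treated mice were the lowest. Its log2FC against LPS was -3.19 ± 0.61 (SE, edgeR adjusted p = 0.00171), a call kept under every alternative tried. *Sptb*, the beta chain of erythroid spectrin, had a log2FC of -1.33 ± 0.39 without overlap (edgeR adjusted p = 0.0159). Its call was lost in edgeR without LPS mouse 7 (log2FC -0.91, under the fold required), without dual-treated mouse 2 (adjusted p = 0.0832), without LPS mice 6 and 7 (0.0725) and by library size alone (0.054). *Ermap*, a membrane protein of erythroid cells, had a log2FC of -1.38 ± 0.40 without overlap (edgeR adjusted p = 0.0146). Its call was lost without dual-treated mouse 2 (adjusted p = 0.0619 in edgeR), mouse 5 (0.0517) or LPS mice 6 and 7 (0.0759). *Tmod1*, which caps actin filaments of the membrane skeleton and is also made by muscle, was at 47.4, 44.4 and 40.6 CPM in control, at 72.0, 72.0 and 65.8 CPM in LPS and at 29.4 and 30.9 CPM in dual-treated mice, in the same order. Its LPS mice were the highest and its dual-treated mice the lowest, with a log2FC of -1.22 ± 0.11 (edgeR adjusted p = 2.01e-05). By library size alone it was at -0.89, under the fold required.

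The 2 genes that rose were *Tmcc2* and *Dmtn*. *Tmcc2* was at 169, 179 and 176 CPM in control mice 1, 2 and 4, at 51.1, 49.2 and 51.1 CPM in LPS mice 1, 6 and 7, and at 123 and 144 CPM in dual-treated mice 2 and 5. LPS mice were the lowest, with a log2FC of 1.40 ± 0.10 (SE) for dual-treated against LPS lungs (edgeR adjusted p = 7.93e-06) and -1.79 ± 0.09 for LPS against control (edgeR adjusted p = 7.83e-07), both without overlap. *Dmtn*, the actin-bundling protein dematin, was at 14.7, 16.5 and 15.9 CPM in control, at 4.98, 4.33 and 3.80 CPM in LPS and at 7.44 and 14.9 CPM in dual-treated mice, in the same order. Its log2FC was 1.36 ± 0.27 for dual-treated against LPS lungs (edgeR adjusted p = 0.00211), without overlap, and 0.75 without dual-treated mouse 5, under the fold required.

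**Figure D3:**
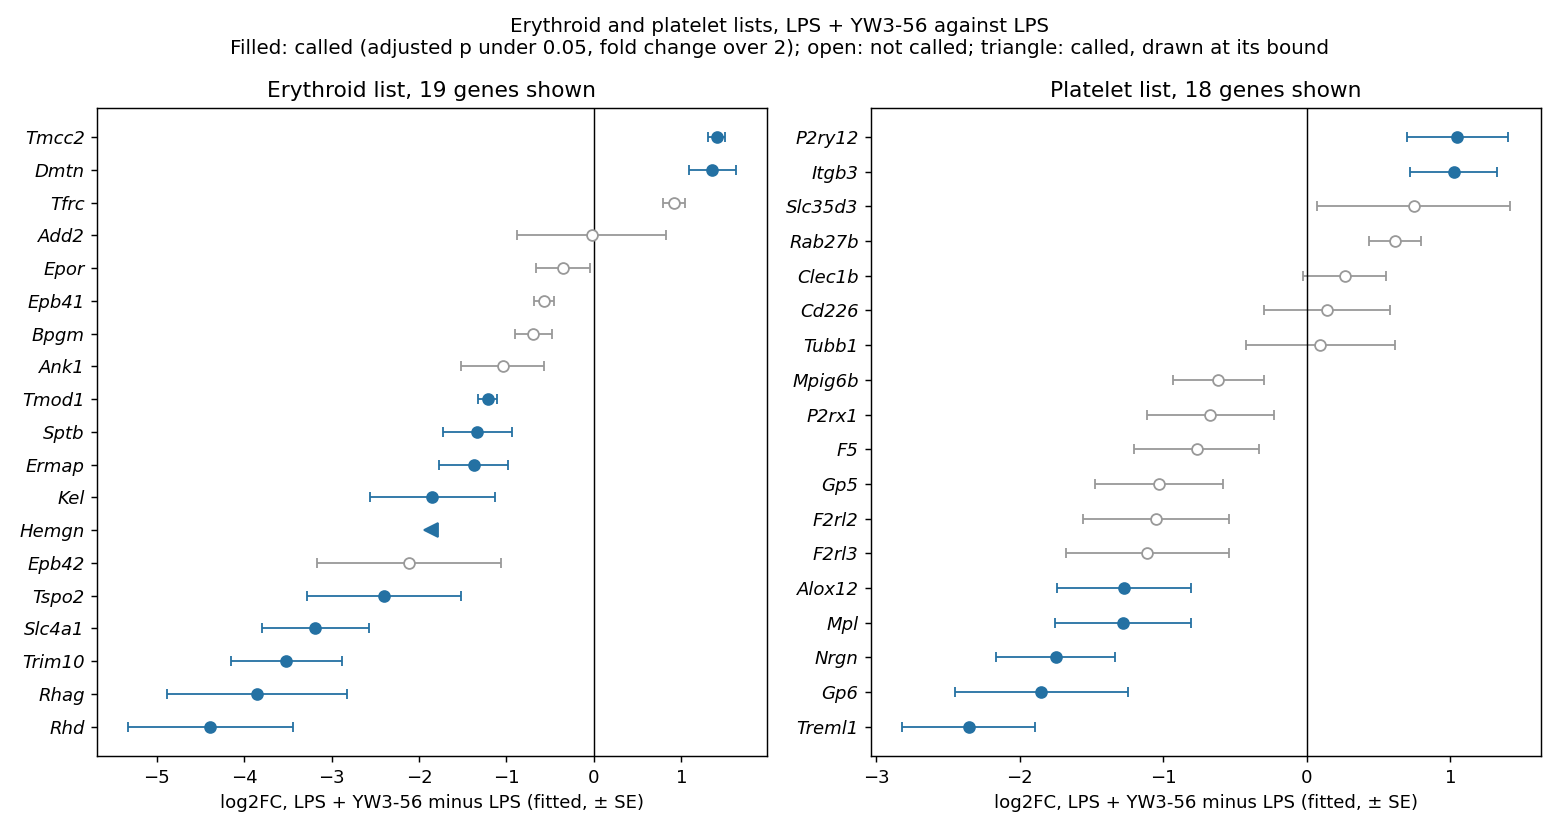
Fitted log2FC of dual-treated against LPS lungs with SE for 19 of the 21 tested genes of the erythroid list, 2 called genes not being drawn, and the 18 of the platelet list, where a value below 0 is lower in dual-treated lungs. Filled points are genes called by edgeR, 10 lower and 2 higher of those shown on the left and 5 lower and 2 higher on the right, and *Hemgn*, with 0 counts in both dual-treated libraries, is a triangle at its bound of -1.86.

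With LPS alone 2 of the 21 erythroid genes rose and 2 fell, while among all genes 17.9% were called higher and 21.3% lower. The median log2FC was -0.08 against -0.01 for all genes, and 0.57 without control mouse 2. It was also above 0 without control mouse 4 (0.01), LPS mouse 6 (0.08) or LPS mice 6 and 7 (0.38). The genes that fell were *Tmcc2* and *Dmtn*. *Slc4a1* rose by a log2FC of 1.46 ± 0.47 (SE, edgeR adjusted p = 0.0208) without overlap. That call was lost without control mouse 1 (adjusted p = 0.075), control mouse 4 (0.0758) or LPS mouse 1 (0.0681) in edgeR. *Rhag*, part of the Rh complex of the red cell membrane, averaged under 1 CPM and is named after its values were seen, because few genes were called. It was at 2.61, 0.520 and 1.01 CPM in LPS mice 1, 6 and 7 and at most at 0.141 CPM in control, and it did not pass the filter on low counts without LPS mouse 1, without LPS mouse 7 or without the LPS libraries as a group, so the filter favored its call. Without such genes 1 rose, beside 14.1% of all genes.

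In dual-treated against control lungs 4 of the 21 erythroid genes fell and 0 rose by edgeR. At an unadjusted p the counts were 11 and 0, and by DESeq2 7 and 0. Among all genes edgeR called 1.9% lower and 5.25% higher at an adjusted p, and DESeq2 called 479 lower and 1022 higher of 18560. The share at an unadjusted p is not given here, so nothing is read from that count. The median log2FC was -1.15, also with *Hemgn* at its bound, against 0.00 for all genes, and 20 of the 21 values were below 0. Over the 15 genes that pass the filter without any 1 of the groups the median was -0.96. Among the genes called were *Trim10*, *Hemgn* and *Rhd*, which averaged under 1 CPM and are named after their values were seen, because few were called. *Trim10*, a protein of late erythroid cells, was at 0.538, 1.31 and 1.01 CPM in control mice 1, 2 and 4, at 2.14, 1.27 and 1.40 CPM in LPS mice 1, 6 and 7, and at 0.182 and 0.0878 CPM in dual-treated mice 2 and 5. Its dual-treated mice lay below all others, near the floor of 3 counts per library (0.136 and 0.132 CPM in dual-treated mice 2 and 5). Its log2FC against control was -2.78 ± 0.63 (SE, edgeR adjusted p = 0.0173), of uncertain size for that reason. The call was lost in edgeR without control mouse 2 (adjusted p = 0.0577), dual-treated mouse 2 (0.0598) or mouse 5 (0.0727). The call of *Hemgn* was lost without control mouse 1 (adjusted p = 0.0557 in edgeR), dual-treated mouse 2 (0.106) or mouse 5 (0.0652), and it did not pass the filter on low counts without control mouse 2 or without the control libraries as a group. Without such genes 3 fell, beside 1.77% of all genes. *Rhd* passed the filter on low counts only through the LPS libraries, so the fit of dual-treated and control lungs alone did not test it. Its call was kept under 1 of 10 alternatives. It was lost in DESeq2 (adjusted p = 0.0854) and, in edgeR, by library size alone (0.0502), with no filter on low counts (0.0544) and without control mouse 1 (0.0811), 2 (0.105) or 4 (0.078) or dual-treated mouse 2 (0.0924) or 5 (0.162). Without control mouse 2 or dual-treated mouse 2, 0 genes of the list were called by edgeR, and without control mouse 4 or dual-treated mouse 5 there were 2.

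The platelet list held 19 other genes, of which 18 were tested. *Gp1bb*, the chain that joins Gp1ba in the von Willebrand factor receptor, had no count in any library. *Gp1bb* (chr16:18439067-18441153, minus strand) overlaps *Septin5* and *Gm49601* in the annotation, and the part of this overlap in its count of 0 was not tested. Relative to LPS lungs, 5 of its 18 genes fell with the dual treatment and 2 rose, with a median log2FC of -0.72 against 0.06 for all genes, of which 14% were called lower and 19.8% higher. The calls of both genes that rose, *Itgb3* and *P2ry12*, were lost without LPS mouse 7 (adjusted p = 0.0502 and 0.0741 in edgeR) and without LPS mice 6 and 7 (0.182 and 0.297). *P2ry12*, the ADP receptor of platelets, had a log2FC of 1.05 ± 0.35 (SE, edgeR adjusted p = 0.0281), with no overlap, and its call was also lost by DESeq2 (just under the fold required), in the fit of those 2 groups alone (adjusted p = 0.0538 in edgeR) and without LPS mouse 6 (adjusted p = 0.0748 in edgeR) or dual-treated mouse 5 (0.182). By library size alone 3 fell and 2 rose, and by DESeq2 6 fell and 0 rose. Without dual-treated mouse 2 there were 3 calls, without LPS mouse 1 there were 4, and without dual-treated mouse 5 the median was -1.30.

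*Treml1*, a receptor stored in platelet granules, was at 2.74, 2.86 and 4.97 CPM in control mice 1, 2 and 4, at 10.4, 7.45 and 5.08 CPM in LPS mice 1, 6 and 7, and at 0.908 and 2.06 CPM in dual-treated mice 2 and 5. The LPS mice were the highest and the dual-treated mice the lowest without overlap, with a log2FC of -2.36 ± 0.47 (SE) for dual-treated against LPS lungs (edgeR adjusted p = 0.00197). *Nrgn*, a calmodulin-binding protein of platelets and neurons, was at 51.5, 33.3 and 65.5 CPM in control, at 41.9, 46.7 and 30.8 CPM in LPS and at 6.35 and 17.3 CPM in dual-treated mice, in the same order. The dual-treated mice lay below all others. It fell in dual-treated lungs against LPS (log2FC -1.75 ± 0.41, edgeR adjusted p = 0.00513) and against control (-2.08 ± 0.42, edgeR adjusted p = 0.00978). *Gp6*, the collagen receptor, had a log2FC of -1.85 ± 0.60 against LPS without overlap (edgeR adjusted p = 0.0242). Its call was lost in edgeR without LPS mouse 1 (adjusted p = 0.0714), dual-treated mouse 2 (0.112) or mouse 5 (0.0558).

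*Itgb3*, the partner of Itga2b in the fibrinogen receptor, which also pairs with another alpha chain in other cells, had the opposite direction. It was at 53.4, 50.6 and 57.3 CPM in control mice 1, 2 and 4, at 72.2, 61.9 and 51.9 CPM in LPS mice 1, 6 and 7, and at 181 and 71.2 CPM in dual-treated mice 2 and 5. Mouse 2 stood apart, and mouse 5 lay just below LPS mouse 1. The log2FC against LPS was 1.02 ± 0.30 (SE, edgeR adjusted p = 0.0165), but 0.18 without mouse 2 (adjusted p = 0.4 in edgeR). By DESeq2 the log2FC was 0.97, under the fold required. Against control the log2FC was 1.23 ± 0.30 (edgeR adjusted p = 0.0244), and 0.38 without mouse 2. That call was also lost without control mouse 1 (adjusted p = 0.074 in edgeR), mouse 2 (0.0814) or mouse 4 (0.0698).

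With LPS alone 2 genes of the platelet list rose and 3 fell, while among all genes 17.9% were called higher and 21.3% lower. By library size alone 1 rose and 4 fell, 1 rose without control mouse 1, control mouse 2 or LPS mouse 1, and 4 rose without LPS mice 6 and 7. The median log2FC was 0.11 against -0.01 for all genes, and its sign turned without control mouse 1 (-0.04) or mouse 2 (-0.12) and by library size alone (-0.20). *Cd226*, an adhesion receptor of platelets and lymphocytes, was at 4.06, 3.90 and 7.31 CPM in control mice 1, 2 and 4, at 1.01, 1.33 and 1.28 CPM in LPS mice 1, 6 and 7, and at 0.817 and 1.84 CPM in dual-treated mice 2 and 5. *Rab27b*, a small GTPase of granule release, was at 28.0, 27.2 and 28.8 CPM in control, at 7.77, 7.39 and 9.27 CPM in LPS and at 10.1 and 14.8 CPM in dual-treated mice, in the same order. Both fell with LPS without overlap, with a log2FC of -2.07 ± 0.38 (SE, edgeR adjusted p = 0.00104) and -1.78 ± 0.17 (edgeR adjusted p = 1.32e-05). *Treml1* rose by a log2FC of 1.12 ± 0.38 (edgeR adjusted p = 0.0246), a call lost without control mouse 1 (adjusted p = 0.0855), control mouse 2 (0.0834) or LPS mouse 1 (0.0872) and by library size alone (0.0675), all in edgeR.

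In dual-treated against control lungs 3 genes of the platelet list fell and 1 rose, beside 5.25% higher and 1.9% lower of all genes, with a median log2FC of -0.52 against 0.00. By DESeq2, at an unadjusted p and with no filter on low counts 5 fell and 1 rose. *Nrgn*, *Cd226* and *Rab27b* were lower and *Itgb3* was higher. The call of *Cd226* was lost without control mouse 4 (adjusted p = 0.057 in edgeR) or dual-treated mouse 2 (0.108), and *Rab27b* was under the fold required without dual-treated mouse 2 (log2FC -0.95). The count of 4 became 7 without dual-treated mouse 5, 1 without mouse 2 and 2 without control mouse 4, and the median was -1.25 without mouse 5.

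A further 15 genes are made by platelets and also by endothelium or leukocytes. Among them 5 were called higher and 1 lower in dual-treated than in LPS lungs, beside 19.8% higher and 14% lower of all genes, and without dual-treated mouse 5 there were 2 higher, while without LPS mouse 6 or LPS mice 6 and 7 there were 4 higher and 2 lower, and with no filter on low counts there were 2 lower. Against control 4 were higher and 0 lower in dual-treated lungs by edgeR (also 4 and 0 at an unadjusted p and by DESeq2), beside 5.25% higher and 1.9% lower of all genes. Without control mouse 1 or mouse 2 there were 2 higher, without control mouse 2 there was also 1 lower, and without dual-treated mouse 5 there were 3 higher and 4 lower. In LPS against control lungs 2 were higher and 5 lower, beside 17.9% higher and 21.3% lower of all genes, and without control mouse 2 or LPS mouse 1 and by library size alone 1 was higher. *F13a1*, the A subunit of coagulation factor XIII, which platelets and macrophages make, was at 8.32, 11.4 and 10.7 CPM in control mice 1, 2 and 4, at 13.2, 16.4 and 12.7 CPM in LPS mice 1, 6 and 7, and at 96.8 and 109.9 CPM in dual-treated mice 2 and 5. It was highest in the dual-treated mice without overlap, with a log2FC of 3.35 ± 0.16 (SE) against control (edgeR adjusted p = 9.39e-06) and 2.87 ± 0.16 against LPS (edgeR adjusted p = 3.12e-06). *Selp*, P-selectin of platelet granules and activated endothelium, was at 5.53, 4.83 and 5.24 CPM in control, at 96.9, 82.1 and 96.1 CPM in LPS and at 38.6 and 7.60 CPM in dual-treated mice, in the same order. It rose with LPS by a log2FC of 4.14 ± 0.49 (edgeR adjusted p = 5.7e-05) and was lower in dual-treated than in LPS lungs by -1.99 ± 0.50 (edgeR adjusted p = 0.00726), both without overlap. The latter call was kept under every alternative tried, but the dual-treated mice lay far apart, so its size depends on the mouse. *Selp* was also called higher in dual-treated lungs than in control, but not without control mouse 1, 2 or 4 or dual-treated mouse 2 (log2FC 0.52). *Vwf*, von Willebrand factor, was at 498, 657 and 639 CPM in control, at 166, 146 and 191 CPM in LPS and at 304 and 549.8 CPM in dual-treated mice, in the same order. It fell with LPS by a log2FC of -1.84 ± 0.22 without overlap (edgeR adjusted p = 6.26e-05).

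Of 6 endothelial marker genes 4 fell and 0 rose with LPS by edgeR (also 4 and 0 at an unadjusted p and by DESeq2), and 4 were called higher and 0 lower in dual-treated than in LPS lungs by each of these. Among all genes edgeR called 17.9% higher and 21.3% lower and 19.8% higher and 14% lower in these comparisons. The 6 genes summed to 3363, 3518 and 3721 CPM in control mice 1, 2 and 4, 2082, 1695 and 1676 CPM in LPS mice 1, 6 and 7, and 3266 and 3243 CPM in dual-treated mice 2 and 5. The most abundant per kilobase of transcript was *Egfl7* in each control mouse and in dual-treated mouse 5, and *Cldn5* in each LPS mouse and in dual-treated mouse 2, and none of the list was at 0. The LPS mice were the lowest without overlap, and the part of these cells in the results for the shared genes was not tested.

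The 15 genes of heme synthesis and its transport were read beside *Alas2*. With LPS 3 fell and 1 rose, beside 17.9% higher and 21.3% lower of all genes, and by library size alone 7 fell. In dual-treated against LPS lungs 3 rose and 1 fell, beside 19.8% higher and 14% lower of all genes. By library size alone 5 rose, and 2 fell without dual-treated mouse 2. In dual-treated against control lungs 0 were called by edgeR, 0 at an unadjusted p and 0 by DESeq2, beside 5.25% higher and 1.9% lower of all genes by edgeR. *Uros*, uroporphyrinogen III synthase, was at 9.35, 12.8 and 11.5 CPM in control mice 1, 2 and 4, at 1.96, 1.44 and 2.12 CPM in LPS mice 1, 6 and 7, and at 6.4 and 13 CPM in dual-treated mice 2 and 5. The LPS mice were the lowest, and control and dual-treated mice overlapped. Its log2FC was -2.61 ± 0.30 (SE) for LPS against control (edgeR adjusted p = 5.15e-05) and 2.40 ± 0.32 for dual-treated against LPS lungs (edgeR adjusted p = 0.000203). *Alas1*, the form of the first enzyme outside erythroid cells, was not called in any comparison and was at 218, 323 and 311 CPM in control, at 167, 157 and 181 CPM in LPS and at 279 and 259.7 CPM in dual-treated mice, in the same order.

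Genes that capture hemoglobin, heme and iron were called in each comparison. Of 11 such genes 4 rose and 1 fell with LPS, 4 rose and 0 fell in dual-treated against control lungs by edgeR (also 4 and 0 at an unadjusted p and by DESeq2), and 2 rose and 3 fell in dual-treated against LPS lungs. Among all genes edgeR called 17.9% higher and 21.3% lower, 5.25% higher and 1.9% lower and 19.8% higher and 14% lower in the same order. With LPS 2 fell without LPS mouse 7, without LPS mice 6 and 7 or by library size alone, and in dual-treated against LPS lungs 1 rose without LPS mouse 1, while 3 rose and 2 fell by library size alone. *Hp*, haptoglobin, which binds free hemoglobin, was at 551, 813 and 908 CPM in control mice 1, 2 and 4, at 5906, 5591 and 5855 CPM in LPS mice 1, 6 and 7, and at 2738 and 1712 CPM in dual-treated mice 2 and 5. The groups did not overlap, with a log2FC of 2.93 ± 0.24 (SE) for LPS against control (edgeR adjusted p = 5.73e-06) and -1.38 ± 0.26 for dual-treated against LPS lungs (edgeR adjusted p = 0.00141). *Hpx*, hemopexin, which binds free heme, was at 0.881, 1.60 and 1.75 CPM in control, at 61.1, 55.0 and 85.7 CPM in LPS and at 4.31 and 3.25 CPM in dual-treated mice, in the same order. It rose with LPS by a log2FC of 5.57 ± 0.27 (edgeR adjusted p = 6.16e-07) and fell in dual-treated against LPS lungs by a log2FC of -4.15 ± 0.29 (edgeR adjusted p = 7.64e-06), both without overlap.

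*Hmox1*, the enzyme that breaks heme down, was at 47.2, 64.2 and 46.9 CPM in control mice 1, 2 and 4, at 147, 139 and 109 CPM in LPS mice 1, 6 and 7, and at 266 and 169 CPM in dual-treated mice 2 and 5. It was lowest in control, and its log2FC against control was 1.32 ± 0.20 (SE) in LPS (edgeR adjusted p = 0.000282) and 2.04 ± 0.22 in dual-treated lungs (edgeR adjusted p = 0.000397), both without overlap. *Cd163*, the receptor through which macrophages take up hemoglobin bound to haptoglobin, was at 9.0, 7.98 and 6.12 CPM in control, at 2.91, 4.62 and 5.25 CPM in LPS and at 39.1 and 21.5 CPM in dual-treated mice, in the same order. It was highest in the dual-treated mice without overlap, with a log2FC of 1.98 ± 0.30 against control (edgeR adjusted p = 0.00253) and 2.83 ± 0.31 against LPS (edgeR adjusted p = 6.58e-05).

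Globins of other stages were near 0. Of 6 such genes, *Hbb-y*, *Hbb-bh1* and *Hbb-bh2* had no count in any library. *Hba-x*, the embryonic zeta chain, had 0, 0 and 1 counts in control mice 1, 2 and 4, 12, 6 and 13 counts in LPS mice 1, 6 and 7, and 0 and 0 counts in dual-treated mice 2 and 5. The LPS mice were the only libraries with more than 1 count, and against a floor of 3 counts per library the dual-treated lungs were at least 4.44-fold lower than LPS lungs. *Hba-x* did not pass the filter on low counts without LPS mouse 1, without LPS mouse 7, without both LPS mice 6 and 7 or without the LPS libraries as a group. *Hbq1a* and *Hbq1b*, the theta chains, had at most 11 and 18 counts.

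Factors that drive the erythroid and megakaryocyte programs were followed as 8 genes, 7 of them tested. Of these 2 rose and 1 fell with LPS, 2 rose and 0 fell in dual-treated against control lungs by edgeR (also 2 and 0 at an unadjusted p and by DESeq2), and 1 rose and 1 fell in dual-treated against LPS lungs. Among all genes edgeR called 17.9% higher and 21.3% lower, 5.25% higher and 1.9% lower and 19.8% higher and 14% lower in the same order. In dual-treated against control lungs 1 rose without control mouse 1 or 2 or dual-treated mouse 2 or 5, and against LPS lungs 2 rose without LPS mouse 6, without LPS mice 6 and 7, by library size alone, at an unadjusted p or with no filter on low counts. *Gata1* was at 1.27, 1.36 and 1.33 CPM in control mice 1, 2 and 4, at 1.60, 1.10 and 0.670 CPM in LPS mice 1, 6 and 7, and at 0.408 and 0.922 CPM in dual-treated mice 2 and 5. It was not called in any comparison, nor were its cofactor *Zfpm1* and *Sox6*, and its dual-treated mice overlapped with LPS. *Klf1*, an erythroid factor, was at most at 0.516 CPM and was not tested. *Nfe2*, a factor of platelet formation that neutrophils also express, rose with LPS by a log2FC of 2.01 ± 0.20 (SE, edgeR adjusted p = 2e-05) and in dual-treated lungs against control by 1.71 ± 0.21 (edgeR adjusted p = 0.000925), without overlap.

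*Tal1*, which endothelium also expresses, was at 32.1, 29.7 and 32.4 CPM in control mice 1, 2 and 4, at 9.85, 8.20 and 8.26 CPM in LPS mice 1, 6 and 7, and at 23.4 and 22.4 CPM in dual-treated mice 2 and 5. LPS mice were the lowest without overlap, with a log2FC of -1.84 ± 0.12 (SE) for LPS against control (edgeR adjusted p = 1.9e-06) and 1.39 ± 0.13 for dual-treated against LPS lungs (edgeR adjusted p = 2.54e-05). *Runx1*, a factor of megakaryocytes and many leukocytes, rose with LPS by a log2FC of 1.39 ± 0.12 (edgeR adjusted p = 7.42e-06) and fell in dual-treated against LPS lungs by a log2FC of -1.36 ± 0.13 (edgeR adjusted p = 3.73e-05), both without overlap. *Gfi1b*, a repressor active in both lineages, was called higher with the dual treatment than in control (log2FC 2.48 ± 0.61, edgeR adjusted p = 0.0231), without overlap. That call was lost in edgeR without control mouse 1 (adjusted p = 0.0771), control mouse 2 (0.0868), dual-treated mouse 2 (0.0602) or mouse 5 (0.0924).

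Among 15603 other genes with a mean of at least 1 CPM, the 5 whose log2 CPM over the 8 libraries was most like that of *Alas2* were *Mtfr1* (Pearson's r = 0.971), *E130308A19Rik* (0.961), *Fbln1* (0.953), *Cysltr2* (0.951) and *Mybphl* (0.950). For *Hbb-bt* they were *Map1lc3a* (0.966), *Mybphl* (0.961), *Zbtb24* (0.953), *Cysltr2* (0.953) and *Rcan2* (0.951). Likeness of pattern was not likeness of size, since *Mtfr1* ranged from 26.5 to 34.4 CPM and *Mybphl*, related to the myosin-binding proteins of heart, from 0.545 to 11.5 CPM. For *Pf4* they were *Sirt7* (0.966), *Park7* (0.954), *Mrpl27-ps* (0.947), *Cybb* (0.943) and *Actb* (0.940). *Cybb*, a subunit of the phagocyte NADPH oxidase, averaged 33.5 CPM in control, 71.5 CPM in LPS and 128 CPM in dual-treated lungs. For *Gp9* they were *B3gnt7* (0.957), *Ciita* (0.943), *Gm5905* (0.936), *Alox12* (0.925) and *F5* (0.924), the last 2 of them on the platelet list. These values describe 8 libraries that share treatments, and they carry no test.

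Promoters of *Hba-a1*, *Hbb-bs*, *Hbb-bt*, *Alas2*, *Gp9* and *Pf4* are shown as the 250 bases before the transcription start, taken from RefSeq (GRCm39). The RefSeq start can differ from the annotation used for gene positions. The windows of *Hba-a1*, *Hbb-bs*, *Hbb-bt* and *Pf4* lie inside the spans given above. Capitals mark GATAA on either strand (TTATC on the other), letters that factors of the GATA family are known to bind. GATAA was found in 7 of the 10 windows and in 22.6% of 32851 RefSeq promoters of the same length. All 5 erythroid genes, *Gp9* and *Gp1ba* hold it. CACCC and TATAA, searched on both strands, were each found in 7 of 10 windows and in 52% and 22.8% of all promoters. Each count of 7 includes both *Hba-a1* and *Hba-a2*, whose windows are nearly identical. The windows are chr11:32233422-32233671 on the plus strand for *Hba-a1*, chr7:103477136-103477385 on the minus strand for *Hbb-bs*, chr7:103463131-103463380 on the minus strand for *Hbb-bt*, chrX:149330163-149330412 on the plus strand for *Alas2*, chr6:87754802-87755051 on the plus strand for *Gp9* and chr5:90920044-90920293 on the plus strand for *Pf4*.
Hba-a1: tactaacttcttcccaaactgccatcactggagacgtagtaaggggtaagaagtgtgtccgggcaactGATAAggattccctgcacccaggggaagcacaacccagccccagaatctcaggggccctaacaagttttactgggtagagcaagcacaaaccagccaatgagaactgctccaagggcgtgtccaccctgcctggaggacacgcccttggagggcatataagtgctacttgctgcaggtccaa
Hbb-bs: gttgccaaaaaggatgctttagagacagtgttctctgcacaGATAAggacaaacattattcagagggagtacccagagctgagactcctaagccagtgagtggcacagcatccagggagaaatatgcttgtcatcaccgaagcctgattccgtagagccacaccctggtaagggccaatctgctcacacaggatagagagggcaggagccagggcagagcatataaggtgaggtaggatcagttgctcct
Hbb-bt: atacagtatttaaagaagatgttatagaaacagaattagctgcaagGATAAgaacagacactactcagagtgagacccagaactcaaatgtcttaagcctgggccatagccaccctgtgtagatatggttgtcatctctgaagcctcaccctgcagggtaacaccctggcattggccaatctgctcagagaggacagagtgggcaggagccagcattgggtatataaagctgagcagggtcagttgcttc
Alas2: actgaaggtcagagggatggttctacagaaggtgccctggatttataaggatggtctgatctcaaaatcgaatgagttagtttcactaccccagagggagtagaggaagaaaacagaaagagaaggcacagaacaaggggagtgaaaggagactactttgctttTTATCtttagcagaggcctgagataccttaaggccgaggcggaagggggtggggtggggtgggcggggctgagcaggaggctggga
Gp9: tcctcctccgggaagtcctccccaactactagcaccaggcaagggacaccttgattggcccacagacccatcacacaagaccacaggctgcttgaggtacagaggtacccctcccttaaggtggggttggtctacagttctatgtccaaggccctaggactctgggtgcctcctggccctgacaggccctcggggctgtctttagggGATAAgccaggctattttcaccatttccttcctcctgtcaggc
Pf4: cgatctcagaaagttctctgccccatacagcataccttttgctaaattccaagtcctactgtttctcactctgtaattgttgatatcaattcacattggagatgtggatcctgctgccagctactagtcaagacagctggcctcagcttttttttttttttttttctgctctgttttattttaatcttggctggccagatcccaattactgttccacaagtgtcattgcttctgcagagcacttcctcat
The *Hba-a1* and *Hba-a2* windows of 300 bases around the start share an unbroken run of 297 bases, so only the first is printed. The longest run shared by the *Hbb-bs* and *Hbb-bt* windows is 14 bases. *Pf4* is shown because its levels parted from those of *Gp9*, and its window and that of *Ppbp* hold no match to GATAA. A match describes letters only.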

How the data were processed

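The authors deposited raw counts per Ensembl gene for 8 lung libraries, 1 per mouse. Per the submitters' notes, reads were checked with FastQC 0.11.9, trimmed, aligned to GRCm39 with HISAT2 2.2.1 and counted with featureCounts 2.0.1. Of 55416 gene IDs, 54749 were matched to GENCODE M39, which gave symbols, positions and transcript lengths. Promoters are from RefSeq. Libraries held 19061949 to 20908608 counts, and Wilson intervals cover counting error only.

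Counts were filtered (filterByExpr), scaled by TMM and fitted in 1 model of 3 groups with edgeR 4.0.16 in R 4.3.3 (quasi-likelihood, 5 residual degrees of freedom, Benjamini-Hochberg over 18560 genes). A call is an adjusted p under 0.05 with a fold change over 2. SE is the log2FC over the square root of F. Alternatives were DESeq2 1.42.0, library size only, TMM without globins, no filter, 2 groups only, unadjusted p and each mouse left out. The steps were tested on simulated data.

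The 10 genes and the gene lists were chosen with earlier results of these data known. Named genes are the 10, up to 6 called genes per pathway list, comparison and direction with the largest log2FC and a mean of at least 1 CPM, all globins of other stages and all factors, and the 5 most like *Alas2*, *Hbb-bt*, *Pf4* and *Gp9*. Genes with no count in any library and the most abundant genes of some lists are also named. The lists of other cells are not named in full. *Alas1*, *Scgb1a1* and *Mmp8* are named outside these rules. Other genes whose levels or calls are given are marked as chosen after their values were seen.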

Additional observations from a re-analysis of the deposited data

How the results depend on the processing

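The 5 erythroid genes stayed lower in dual-treated lungs under each alternative tried that gave a value. For dual-treated against control lungs, the 4 erythroid genes called became 7 with DESeq2, 9 with no filter on low counts, where more genes were tested, and 11 at an unadjusted p, where the threshold is looser. Leaving out 1 mouse at a time gave 0 to 4 erythroid genes called for dual-treated against control, 2 to 4 for LPS against control and 8 to 12 for dual-treated against LPS lungs, all by edgeR. The median log2FC of the erythroid list was then -0.25 to 0.57 for LPS against control. For the platelet list 1 to 7 genes were called for dual-treated against control and 3 to 6 for dual-treated against LPS lungs, with medians of -1.25 to -0.26 and -1.30 to -0.35, and its median for LPS against control was -0.12 to 0.32. Apart from what these settings change by construction, the cause was not tested. A lone mouse left in a group is assumed to vary like the other groups. Globins have no value with globins left out. Mice were assigned to the groups at random and no pairing of mice is described, so no paired analysis was run. At this depth genes near the floor of 3 counts per library in both groups cannot be compared. With 1 group near it the size of a difference is uncertain.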

Other observations

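Markers of other cells were counted in the same libraries. Of 7 neutrophil genes 6 were called higher and 0 lower by edgeR with LPS, 6 and 0 in dual-treated against control lungs, and 4 higher and 1 lower in dual-treated against LPS lungs. Among all genes edgeR called 17.9% higher and 21.3% lower, 5.25% higher and 1.9% lower and 19.8% higher and 14% lower in the same order. At an unadjusted p the first 2 comparisons gave 6 and 7 higher, and by DESeq2 7 and 6, with 0 lower, and the last gave 4 higher and 1 lower at an unadjusted p and 3 and 1 by DESeq2. In the last, 2 were higher without LPS mouse 1 or mouse 7 and 1 without dual-treated mouse 5. Without LPS mice 6 and 7, of its 5 calls only that of *Mmp8* was left, and those of *Retnlg* (adjusted p = 0.0569 in edgeR), *Cxcr2* (0.113), *Csf3r* (0.0622) and *Ly6g* (0.0665), named after their values were seen, were lost. The call of *Mmp8* was lost without LPS mouse 1 (log2FC 0.94) or mouse 7 (0.84), under the fold required. It was also lost without dual-treated mouse 2 (log2FC 1.10) or mouse 5 (1.01). The 7 genes summed to 215, 118 and 125 CPM in control mice 1, 2 and 4, 2125, 2948 and 1843 CPM in LPS mice 1, 6 and 7, and 1715 and 2387 CPM in dual-treated mice 2 and 5, with *S100a9* the most abundant and none at 0. Treated mice lay above control mice, and LPS and dual-treated mice overlapped. Of 5 genes of immature myeloid cells 4 were called higher and 1 lower with LPS, 1 and 1 in dual-treated against control, and 0 and 4 in dual-treated against LPS lungs by edgeR, at an unadjusted p and by DESeq2. The gene called lower against control was *Kit*, named after its values were seen. *Kit* was at 186, 185 and 211 CPM in control, 62.2, 60.3 and 58.7 CPM in LPS and 73.3 and 112 CPM in dual-treated mice, in the same order. The other 4 genes were at most at 2.21 CPM in control, and the cells behind *Kit* were not tested. The gene called higher against control was not called without control mouse 1 or 4 or dual-treated mouse 2 or 5, and the one called lower was not called without dual-treated mouse 2. *Elane*, a granule enzyme of neutrophil precursors picked after its values were seen, was at 0.783, 0.282 and 0.460 CPM in control mice 1, 2 and 4, at 6.65, 6.99 and 4.69 CPM in LPS mice 1, 6 and 7, and at 0.454 and 0.220 CPM in dual-treated mice 2 and 5. Its LPS mice were the highest without overlap, and its dual-treated mice overlapped with control. It would not have passed the filter on low counts without the LPS libraries, so the filter favored its calls, and without such genes 3 of the list were higher with LPS and 3 lower in dual-treated than in LPS lungs, beside 14.1% and 10.9% of all genes.

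Of 6 lymphocyte genes 0 were called higher and 2 lower with LPS, 0 in dual-treated against control, and 2 and 1 in dual-treated against LPS lungs by edgeR. Among all genes edgeR called 17.9% higher and 21.3% lower, 5.25% higher and 1.9% lower and 19.8% higher and 14% lower in the same order, and the same shares stand beside the next lists. At an unadjusted p the first 2 comparisons gave 1 higher and 2 lower, and 1 and 1, and by DESeq2 1 and 2, and 0 and 1. Without LPS mice 6 and 7 the 2 lower with LPS became 1 and the 2 higher against LPS became 1. Without dual-treated mouse 2 the latter was also 1. With LPS 1 was higher without LPS mouse 7, and in dual-treated against control lungs 1 was higher without dual-treated mouse 2 or 5. The gene lower against LPS was not called by library size alone, in the fit of 2 groups alone or without LPS mouse 1 or 6 or dual-treated mouse 2 or 5. Of 7 genes of alveolar and airway epithelium 0 were called with LPS and in dual-treated against control lungs by edgeR, at an unadjusted p and by DESeq2, and 1, *Scgb1a1*, was called lower in dual-treated than in LPS lungs, but not by library size alone. With LPS 2 were lower without control mouse 2 or LPS mouse 1 or by library size alone, in dual-treated against control lungs 2 without dual-treated mouse 5, and against LPS lungs 2 without LPS mice 6 and 7. Of mast cell and basophil genes 2 were tested. *Mcpt8*, of basophils and named after its values were seen, had 2, 0 and 0 counts in control mice 1, 2 and 4, 55, 15 and 14 counts in LPS mice 1, 6 and 7, and 0 and 0 counts in dual-treated mice 2 and 5. It would not have passed the filter without the LPS libraries, so the filter favored its calls and they are not counted. The other, *Cpa3* of mast cells, also named after its values were seen, was called lower with LPS and in no other comparison by edgeR. It was not called without control mouse 2 or 4, LPS mouse 6, LPS mouse 7 or both of these LPS mice. The part of these cells in the results was not tested.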
